A study of Rattus norvegicus with 9 samples.

Results

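Oxidative phosphorylation is carried out by 5 protein complexes in the inner mitochondrial membrane, and this report describes the nuclear genes that encode their subunits in rat liver after total-body irradiation (TBI). The genes were chosen by their symbols, matched to the RefSeq accession of each array probe: the Nduf genes of complex I, Sdha to Sdhd of complex II, the Uqcr genes and Cyc1 of complex III, Cox4 to Cox8 of complex IV and the Atp5 genes of complex V. The array carried 77 such genes, and 75 of them passed the background filter, among 9604 named genes that passed it in all. The rule itself reads symbols and that filter, under which a probe needed the flag for signal well above background in all 3 rats of 1 group or more.

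The data are one-colour Agilent arrays of liver RNA from 9 male Wistar rats, with 3 rats in each group and each rat on an array of its own, and livers were taken 24 h after exposure. The control rats received no irradiation. The TBI rats received 6.5 Gy of gamma rays from a 60Co source at 2 Gy/min. The HSC+TBI rats were given Hong Shan Capsule (HSC), a mixture of medicinal herbs, by gavage on 3 days before the same exposure, at a daily dose that the sample labels give as 30 mg/kg and the series description as 10 g/kg. Ages are not given in the sources used here, and no array held liver from rats given HSC without irradiation, so an effect of HSC alone cannot be told apart from its effect on irradiated liver.

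Complex I takes electrons from NADH and complex II from succinate. Both pass them through ubiquinone to complex III and on to complex IV, which reduces oxygen, while complexes I, III and IV pump protons out of the matrix and complex V uses the returning protons to make ATP. Hepatocytes are rich in mitochondria and use this ATP for gluconeogenesis, urea synthesis and bile acid transport. All but a few core subunits are encoded in the nucleus, and their promoters are known for binding sites of NRF1, of the ETS-family factor GABP (also called NRF2), of YY1 and of the estrogen-related receptors (ERR).

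The letters of these sites were looked for on both strands in the 300 bases around the start of each gene (250 before and 50 after, RefSeq, GRCr8). A promoter was found for 67 of the 75 genes. Cox4i2 and Uqcrb, described in the results, were not among them. GCGCATGCG, the core of an NRF1 site, was present in 8 of the 67 promoters (11.9%), against 1.93% of 21851 promoters of coding genes and 3.12% of 8275 promoters of genes that passed the filter. CCGGAAG, an ETS core, was present in 20 (29.9%, against 10.7% and 17.4%). AAGATGGCG, a YY1 core, was present in 8 (11.9%, against 2.07% and 3.31%), and AAGGTCA, an ERR core, in 8 (11.9%, against 3.78% and 3.06%). At least 1 of the 4 was in 34 promoters (50.7%, against 17.2% and 24.5%). These are matches of letters, not measured binding, and the NRF1 letters can match both strands at overlapping positions. The following stretches of 30 bases, written in the direction of the gene with the motif in capitals, come from genes whose values are described in the results.
Ndufaf4, NRF1, chr5:43401626-43401655 (+): cgcagtagtccGCGCATGCGcccctgtgga
Uqcrc1, NRF1, chr8:118468173-118468202 (+): tactccaccctGCGCATGCGtagcgcggct
Atp5po, NRF1, chr11:44657524-44657553 (-): cacgccgacgcGCGCATGCGctctggcatc
Uqcrc1, YY1, chr8:118468211-118468240 (+): acggaagttagAAGATGGCGgcgtccgcag
Sdhb, ETS, chr5:158547814-158547843 (+): ttactcgggataCCGGAAGctgccttccac
Sdhd, ETS, chr8:59850672-59850701 (-): accacctcctgcCTTCCGGttcactcttga
Ndufs1, ETS, chr9:72073787-72073816 (-): aggcctcggctaCTTCCGGcggaactgcag
Atp5f1a, ERR, chr18:73567492-73567521 (+): ggccggctgcctTGACCTTccttcgcgctc
Atp5mg, ERR, chr8:54130409-54130438 (-): gagggggcagccTGACCTTagaagtgggga

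All 5 complexes were represented among the 75 genes: 36 genes for complex I (31 subunits and 5 assembly factors), 4 for complex II, 6 for complex III, 14 for complex IV and 15 for complex V including its inhibitor. Of the 119 coding genes that RefSeq lists under these symbols, 42 had no probe matched by accession and were not analysed here, among them Cyc1, Ndufa13, Ndufs6, Cox6b1 and Atp5mc3. Cox8c and Uqcrq had a probe that was not well above background on any array. Probes of 73 of the 75 genes were well above background on all 9 arrays, the exceptions being Ndufs4 and Cox8b. RefSeq also lists pseudogenes under these symbols, and whether a probe separates a gene from such a copy was not tested.

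The slides, the share of spots above background and the signals of some cell type markers moved with the groups. The control arrays shared 1 slide and the TBI arrays another, while HSC+TBI 1 and 3 shared a slide and HSC+TBI 2 lay on a slide of its own, so slide and group cannot be told apart. The share of spots well above background was 57.2% to 59.9% in control, 64.1% to 70.1% in TBI and 59.3% to 61.0% in HSC+TBI rats. All 10 hepatocyte markers were well above background in every rat, with 0 called by limma in any comparison (2, 1 and 0 at an unadjusted p under 0.05). Of 10 leukocyte markers 7 were on the array and 5 were tested, with a summed signal of 467 to 681 in control, 245 to 663 in TBI and 157 to 174 in HSC+TBI rats. Cd3e was not well above background on any array, and Cd3g and Cd79b were called lower in both irradiated groups. Log2 fold changes of the tested leukocyte markers ran from -3.60 to 1.15 after TBI and from -4.43 to -1.13 after HSC+TBI. The 9 Kupffer cell markers summed to 89368 to 139587 in control, 93718 to 175109 in TBI and 65593 to 70932 in HSC+TBI rats. The sums of 5 erythroid markers were 23982 to 62147, 16253 to 39037 and 13892 to 24157 in that order. Limma called 0 of both lists in each comparison. At an unadjusted p under 0.05, limma gave 1 Kupffer cell and 3 erythroid markers after TBI, and 4 and 4 after HSC+TBI. Between the irradiated groups it gave 8 and 0. The erythroid log2 fold changes ran from -1.30 to 1.53 after TBI and from -1.96 to 0.63 after HSC+TBI. Of 7 stellate cell markers, 1 (Lrat) was called lower after TBI, while 4 endothelial and 2 cholangiocyte markers gave 0 calls (1 and 0 at an unadjusted p under 0.05 after TBI, 2 and 0 after HSC+TBI, 0 and 0 between the irradiated groups). Of all tested probes, limma called 7.25% for TBI against control, 3.23% for HSC+TBI against control and 0.796% for HSC+TBI against TBI. An unadjusted p under 0.05 was met by 25.5%, 19.6% and 16.3%. In whole liver, fewer cells of a type and less RNA per cell cannot be told apart, and the part of these shifts in the values of the member genes was not tested.

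None of the 75 genes was called different between control and irradiated liver or between the 2 irradiated groups. Limma compared the groups in 1 fit of the 3 group means. A call needed a fold change of 1.5 or more in either direction as well as a p under 0.05 after Benjamini-Hochberg adjustment over all 25369 tested probes. For TBI against control 0 of 75 genes were called, while 7.25% of all tested probes were. For HSC+TBI against control it was 0 of 75 beside 3.23%, and for HSC+TBI against TBI 0 of 75 beside 0.796%. The shares over all probes moved by over 1.5 times with single rats left out. For TBI against control they ranged from 3.58% to 9.85%, and were 4.61% and 3.58% without control 2 and control 3. For HSC+TBI against control they ranged from 1.30% to 3.83%, and were 1.30% to 1.89% without control 2, control 3 or any of the HSC+TBI rats. For HSC+TBI against TBI they ranged from 0.190% (without TBI 2) to 3.97% (without TBI 1), and leaving out any of the 9 rats moved this share by over 1.5 times. Without a minimum fold change limma still called 0 of 75 in each comparison, beside 8.09%, 3.42% and 0.800% of all tested probes. Limma's F-test over the 3 groups called 0 of 75 at an adjusted p under 0.05, beside 6.89% of all tested probes, and the smallest member value was that of Ndufaf4 (adjusted p = 0.0596).

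A count of 0 leaves room for small differences, so intervals are given as well. At an unadjusted p under 0.05, limma gave 6 of the 75 genes for TBI against control, 6 for HSC+TBI against control and 2 for HSC+TBI against TBI, beside 25.5%, 19.6% and 16.3% of all tested probes. After TBI these were Ndufaf4, which was higher, and Sdha, Sdhb, Cox8b, Atp5f1b and Atp5mg, which were lower, Cox8b being not well above background in the controls. The 95% interval of the fold change lay wholly within 1.5-fold in either direction for 66, 64 and 69 of the 75 genes (88.0%, 85.3% and 92.0%), beside 38.9%, 42.3% and 44.5% of all tested probes. Bright probes vary less, and the member genes gave bright signals. Among the 1530 tested probes at least as bright as the lower quartile of the members, the interval lay within 1.5-fold for 67.5%, 69.1% and 79.0%, and an unadjusted p under 0.05 was met by 21.3%, 21.7% and 5.95%. Limma called 71, 40 and 2 of these 1530 probes. The median size of the member changes was 0.10 after TBI, 0.09 after HSC+TBI and 0.08 between the irradiated groups (log2, without sign). Over all tested probes it was 0.24, 0.21 and 0.20, and over the 1530 bright probes 0.16, 0.16 and 0.10.

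**Figure D1:**
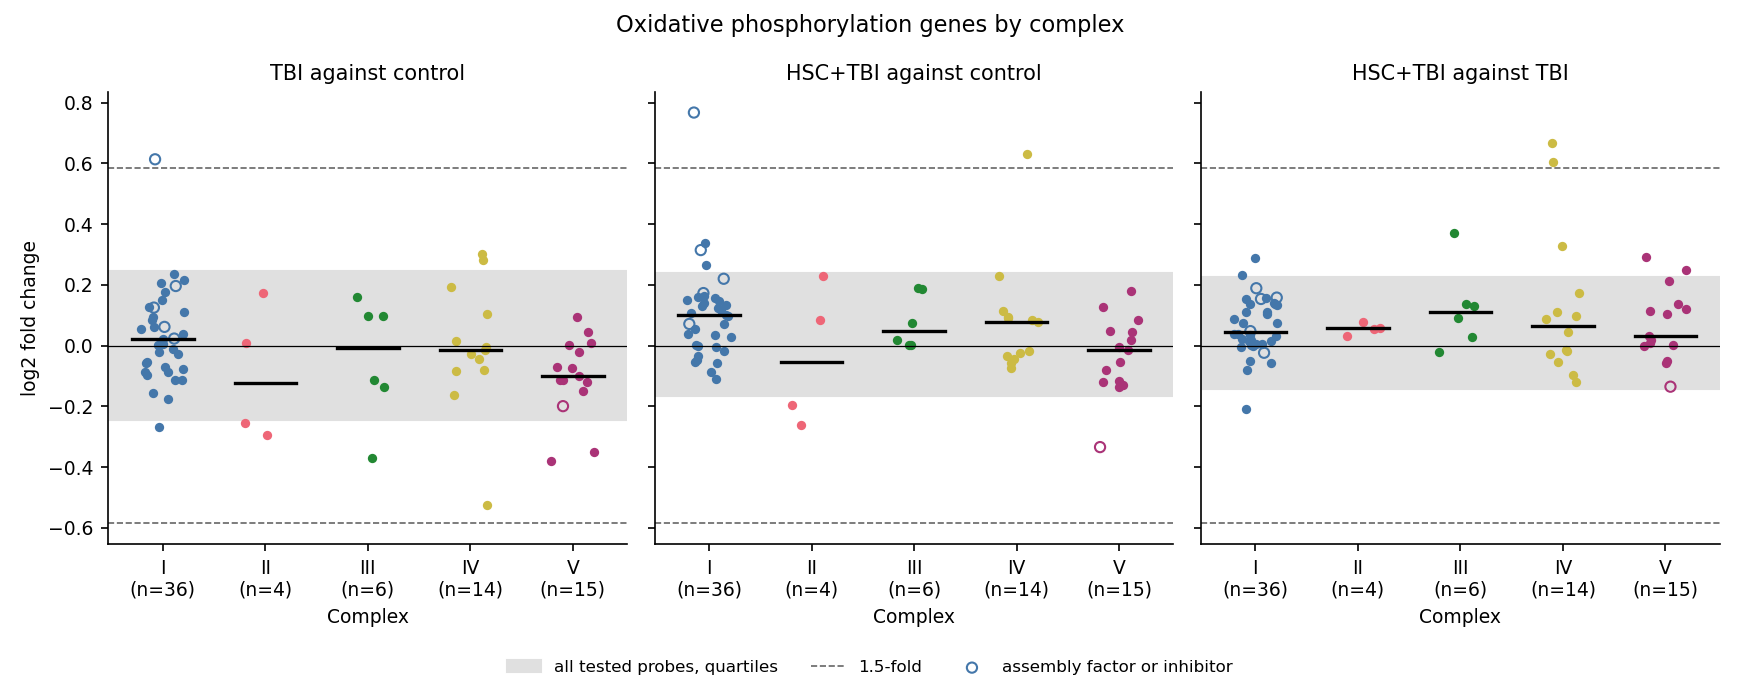
log2 fold changes of the 75 genes by complex (vertical axis, log2) in the 3 comparisons, 1 point per gene, with open circles for assembly factors and the inhibitor Atp5if1, black bars for the median of a complex, dashed lines at 1.5-fold and a grey band from the lower to the upper quartile of all 25369 tested probes. Most points lie inside the band, and Ndufaf4 is the highest point in both comparisons with control (0.61 and 0.77). Ndufs4 and Cox8b, not well above background on any control array, are counted in n but drawn neither as points nor in the black bars against control.

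The median log2 fold change of the genes was -0.02 for TBI against control (35 higher, 40 lower), 0.07 for HSC+TBI against control (49 higher, 26 lower) and 0.06 for HSC+TBI against TBI (57 higher, 18 lower). The medians over all tested probes were -0.01, 0.05 and 0.06. The sign of the TBI value and the size of the others depend on the scaling. When each array was shifted by its 75th percentile in place of quantile normalization, the member medians were 0.04, 0.21 and 0.17 and those of all tested probes 0.03, 0.05 and 0.04, while the bright probes named above had medians of 0.05, 0.22 and 0.16. Added together, the member probes made up 2.28% to 2.46% of the summed signal of all probes in each of the 9 rats. The groups overlapped in this share, with 2.35% to 2.46% in control, 2.28% to 2.45% in TBI and 2.38% to 2.46% in HSC+TBI rats.

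Part of the spread within a group was common to many of the genes. TBI 3 gave the lowest TBI value for 43 of the 75 genes (57.3%, against 10412 of the 25369 tested probes, or 41%), HSC+TBI 2 the lowest HSC+TBI value for 39 (52.0%, against 38.4%) and control 2 the lowest control value for 36 (48.0%, against 34.5%). The genes of 1 rat were measured on 1 array and are not independent of each other.

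Complex I is the largest of the complexes, with a core that holds the flavin and the iron-sulfur clusters (Ndufs1, Ndufs3, Ndufs7, Ndufs8, Ndufv1 and Ndufv2 among its nuclear genes) and a shell of accessory subunits. The median log2 fold change of its 31 subunits was 0.00 after TBI, 0.10 after HSC+TBI and 0.04 between the irradiated groups. None of the 31 passed an unadjusted p under 0.05 after TBI and 1 did after HSC+TBI. That gene was Ndufb5, an accessory subunit of the membrane arm. Its log2 signals were 13.92, 13.62 and 13.56 in the control rats, 13.94, 13.89 and 13.97 in the TBI rats and 14.09, 13.98 and 14.03 in the HSC+TBI rats. All HSC+TBI rats lay above all control and all TBI rats, and the TBI rats overlapped with the controls. HSC+TBI exceeded control by 0.34 on the log2 scale (95% interval 0.06 to 0.62, adjusted p = 0.176 by limma).

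Of the core genes of complex I, Ndufs1 and Ndufs8 are given by rat. Ndufs1 encodes the largest iron-sulfur subunit, and its log2 signals were 8.59, 8.71 and 8.61 in control, 8.82, 8.59 and 9.03 in TBI and 8.89, 8.71 and 9.11 in HSC+TBI rats. Against control, the log2 fold change was 0.18 (95% interval -0.17 to 0.52) after TBI and 0.26 (-0.08 to 0.61) after HSC+TBI, and the groups overlapped. Ndufs8, which carries iron-sulfur clusters, differed between HSC+TBI and TBI rats by 0.23 on the log2 scale (95% interval -0.08 to 0.54, adjusted p = 0.442 by limma), with no overlap between TBI (11.15, 11.00 and 10.90) and HSC+TBI rats (11.38, 11.15 and 11.21), although TBI 1 and HSC+TBI 2 lay close together.

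Ndufa4 was named for complex I, though its protein is now assigned to cytochrome c oxidase. Its log2 signals were 15.20, 15.11 and 14.98 in control, 14.97, 14.70 and 14.82 in TBI and 14.99, 14.89 and 15.09 in HSC+TBI rats. The TBI rats lay below all controls, with TBI 1 and control 3 apart by less than the spread within either group. The log2 fold change was -0.27 (95% interval -0.54 to 0.01, adjusted p = 0.212 by limma). Ndufs4, an accessory subunit needed for stable assembly, was measured close to background and was not well above it on any control array. Its log2 signals were 4.04, 3.86 and 4.14 in TBI and 2.84, 4.22 and 4.36 in HSC+TBI rats, of which 2 were well above background. It passed the filter through the TBI rats alone, so no fold against control is given.

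Assembly factors put complex I together and are not part of the finished enzyme. All 5 in the set (Ndufaf1, Ndufaf3, Ndufaf4, Ndufaf5 and Ndufaf7) had positive log2 fold changes against control in both irradiated groups, from 0.02 to 0.61 after TBI and from 0.07 to 0.77 after HSC+TBI. Ndufaf4 had the largest change against control of the 75 genes in both comparisons. Its log2 signals were 9.11, 8.98 and 8.88 in the control rats, 9.90, 9.31 and 9.60 in the TBI rats and 9.72, 9.98 and 9.57 in the HSC+TBI rats. Every irradiated rat lay above every control rat, and the 2 irradiated groups overlapped. The fold change was 1.53 after TBI (log2 0.61, standard error 0.18, adjusted p = 0.0689) and 1.70 after HSC+TBI (log2 0.77, standard error 0.18, adjusted p = 0.0545), both just short of limma's threshold, and the irradiated groups differed by 0.15 (95% interval -0.25 to 0.55).

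The array held 3 probes for Ndufaf4, and all 3 gave non-overlapping groups for both comparisons with control. The dimmer probes had log2 fold changes of 0.63 and 0.45 after TBI and 0.72 and 0.64 after HSC+TBI. The call of Ndufaf4 against control turned on the processing: for HSC+TBI it was called under a 75th percentile shift (0.81, adjusted p = 0.0406), under normexp background correction (0.60, adjusted p = 0.0480), with only probes well above background on all arrays (adjusted p = 0.0461) and with only the compared groups in limma's fit (adjusted p = 0.0378). Over all alternatives the log2 fold change lay between 0.47 and 0.76 after TBI and between 0.60 and 0.86 after HSC+TBI, with adjusted p from 0.00127 to 0.206 and from 0.00444 to 0.177. Both lowest values came from limma with the slide as a random block, a fit that called 17.8% and 10.1% of all probes. Outside that fit limma's lowest adjusted p was 0.0487 after TBI and 0.0378 after HSC+TBI. Without TBI 2 it was also called after TBI (0.76, adjusted p = 0.0487).

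Of the other assembly factors, Ndufaf7, a methyltransferase, passed an unadjusted p under 0.05 after HSC+TBI. Its log2 signals were 7.18, 7.04 and 7.32 in control, 7.24, 7.33 and 7.36 in TBI and 7.39, 7.43 and 7.67 in HSC+TBI rats. The HSC+TBI rats were above all others, with a log2 fold change of 0.31 against control (95% interval 0.03 to 0.60, adjusted p = 0.211 by limma). Assembly factors outside the set, for complexes I to V, were listed separately. Of these, 28 were tested and limma called 0 in each comparison, beside 7.25%, 3.23% and 0.796% of all tested probes. At an unadjusted p under 0.05 there were 4, 4 and 4, beside 25.5%, 19.6% and 16.3%. Their median log2 fold changes were -0.09, 0.08 and 0.07 in the order of comparisons used above.

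**Figure D2:**
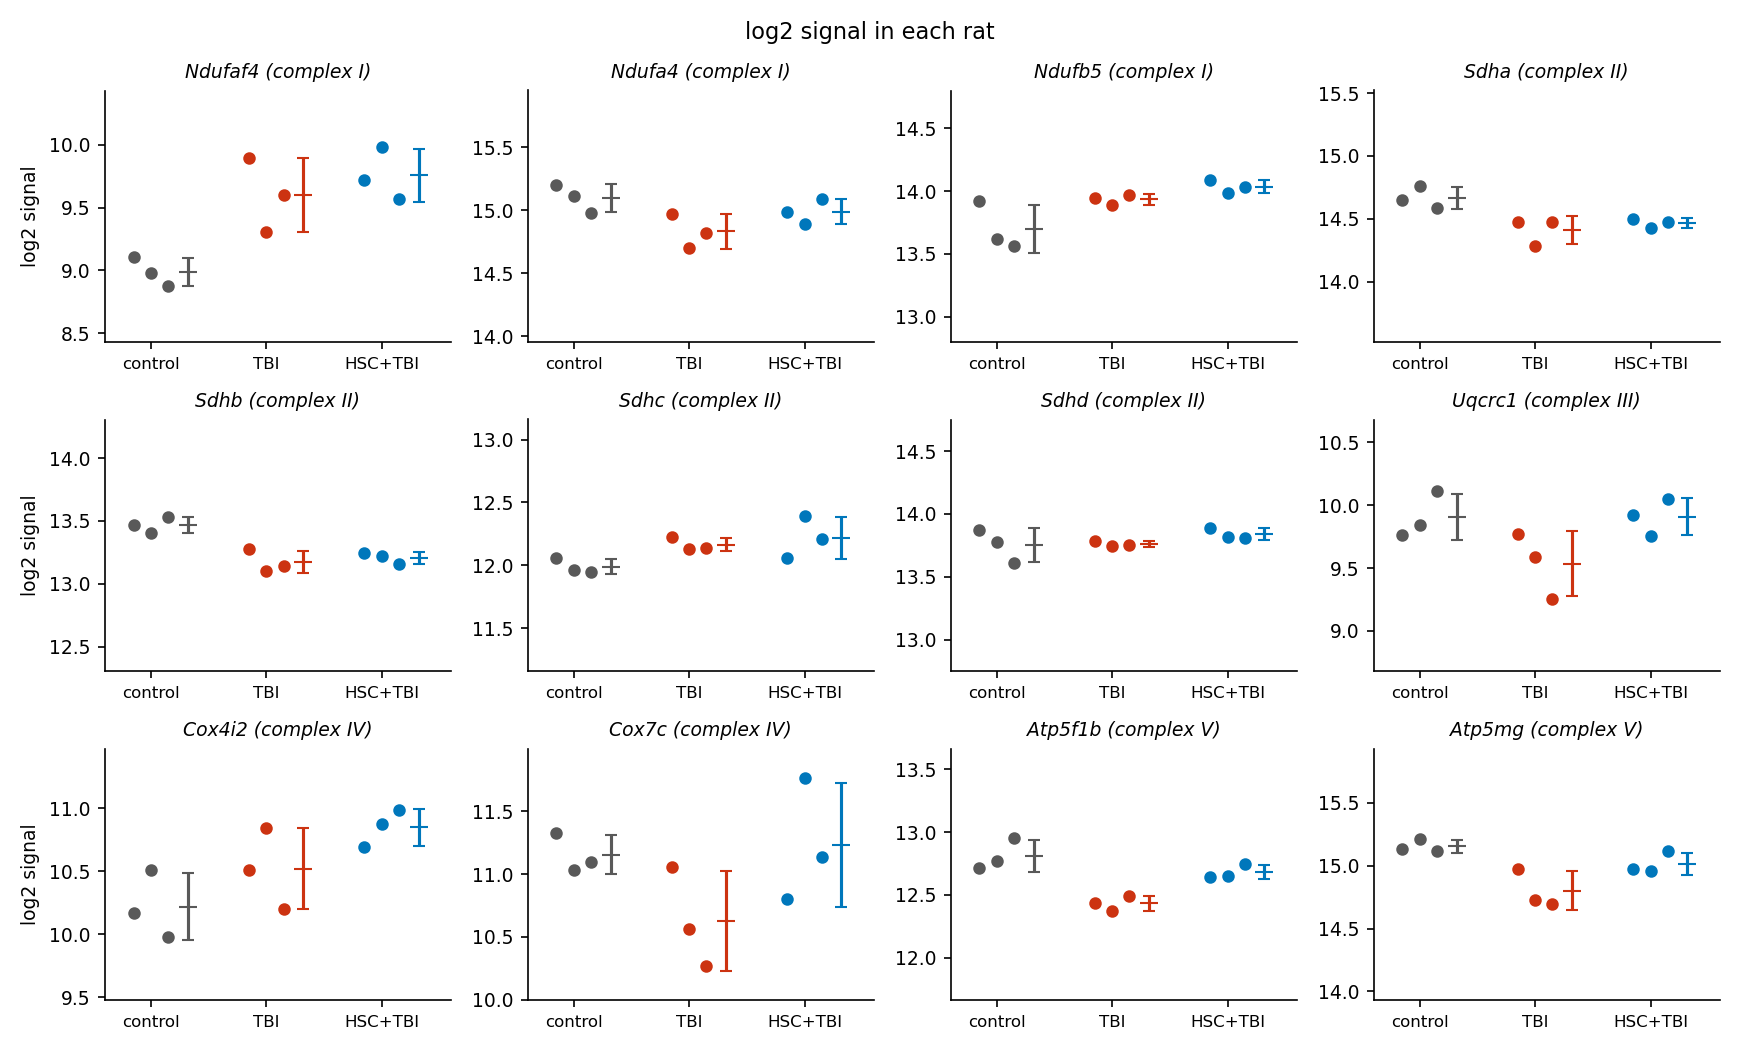
log2 signal (vertical axis, each panel spanning 2 log2 units) of 12 of the genes in each of the 9 rats, grey for control, red for TBI and blue for HSC+TBI, with the mean and SD of 3 rats to the right of each group. Ndufaf4 is higher in all 6 irradiated rats than in the controls, and Sdha and Sdhb are lower in all 6.

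Complex II, succinate dehydrogenase, also works in the tricarboxylic acid (TCA) cycle. Its 4 genes went different ways: the catalytic subunits Sdha (flavoprotein) and Sdhb (iron-sulfur protein) had lower signals in both irradiated groups, and the membrane anchors Sdhc and Sdhd did not. Sdhb gave 13.47, 13.41 and 13.53 in the control rats, 13.28, 13.10 and 13.14 in the TBI rats and 13.25, 13.22 and 13.15 in the HSC+TBI rats. All 6 irradiated rats lay below the controls, and the irradiated groups overlapped. The log2 fold change was -0.29 after TBI (95% interval -0.53 to -0.06, adjusted p = 0.119) and -0.26 after HSC+TBI (-0.50 to -0.03, adjusted p = 0.208), neither passing limma's threshold. Over all alternatives the TBI value lay between -0.34 and -0.22 and the HSC+TBI value between -0.30 and -0.096, the latter under the 75th percentile shift.

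Sdha gave 14.65, 14.76 and 14.59 in control, 14.47, 14.28 and 14.48 in TBI and 14.50, 14.43 and 14.48 in HSC+TBI rats. Again all 6 irradiated rats were below the controls, by a log2 fold change of -0.25 after TBI (95% interval -0.50 to -0.01, adjusted p = 0.185) and -0.20 after HSC+TBI (-0.44 to 0.05, adjusted p = 0.362 by limma). The second of these became 0.02 under a 75th percentile shift. Sdhc gave 12.06, 11.96 and 11.95 in control, 12.22, 12.13 and 12.14 in TBI and 12.06, 12.39 and 12.21 in HSC+TBI rats, with log2 fold changes of 0.17 (95% interval -0.09 to 0.44) and 0.23 (-0.04 to 0.49), and only the TBI rats lay clear of the controls. Sdhd gave 13.87, 13.78 and 13.61 in control, 13.79, 13.75 and 13.75 in TBI and 13.89, 13.82 and 13.81 in HSC+TBI rats. Its log2 fold changes were 0.01 and 0.09 against control, with overlapping groups, and the first turned to -0.06 without control 3. Whether the catalytic genes differed from the anchors in their change was not tested.

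Complex III passes electrons from ubiquinol to cytochrome c. Of its 6 genes, 0 passed an unadjusted p under 0.05 in any comparison. Uqcrc1, a core protein of the complex, had the widest interval of the 6, with log2 signals of 9.76, 9.84 and 10.11 in control, 9.77, 9.59 and 9.25 in TBI and 9.92, 9.75 and 10.05 in HSC+TBI rats. TBI 3 was the lowest rat and TBI 1 lay within the controls. After TBI the log2 fold change was -0.37 (95% interval -0.75 to 0.01, adjusted p = 0.208), and HSC+TBI exceeded TBI by 0.37 (-0.01 to 0.75, adjusted p = 0.318 by limma). The other core protein, Uqcrc2, had a log2 fold change of 0.16 after TBI (95% interval -0.18 to 0.50). Uqcrfs1, the Rieske iron-sulfur protein, had values of 0.10 after TBI and 0.08 after HSC+TBI.

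The small subunits of complex III gave narrower intervals. Uqcr10 had log2 signals of 16.04, 16.02 and 15.90 in control, 15.93, 15.90 and 15.80 in TBI and 15.99, 16.01 and 16.02 in HSC+TBI rats, with a log2 fold change after TBI of -0.11 (95% interval -0.34 to 0.12). Uqcrb gave 15.19, 15.11 and 15.02 in TBI and 15.33, 15.19 and 15.20 in control rats, so that TBI 1 and control 2 were equal to 2 decimals, and its log2 fold change was -0.13 (95% interval -0.37 to 0.10). Its 2 dimmer probes gave -0.01 and -0.0009. Uqcrh, the hinge protein that binds cytochrome c1, had log2 fold changes of 0.10 after TBI and 0.19 after HSC+TBI with overlapping groups.

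Complex IV, cytochrome c oxidase, has several subunits with paired forms, a common one and one typical of a tissue such as heart, lung or testis. Cox4i1, the common form of subunit 4, gave 12.60, 12.62 and 12.78 in control, 12.76, 12.70 and 12.45 in TBI and 12.84, 12.63 and 12.77 in HSC+TBI rats, and its log2 fold changes of -0.03 and 0.08 against control had intervals within 1.5-fold. Cox4i2, the form known from lung and induced by low oxygen, gave 10.17, 10.51 and 9.98 in control, 10.51, 10.85 and 10.20 in TBI and 10.69, 10.87 and 10.98 in HSC+TBI rats. The HSC+TBI rats lay above all controls, and the TBI rats overlapped with both other groups. The fold change of HSC+TBI against control was 1.55 (log2 0.63, 95% interval 0.18 to 1.08, adjusted p = 0.126 by limma), and it was 0.30 after TBI (log2, -0.15 to 0.75).

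Cox8b, the heart and muscle form of subunit 8, was not well above background on any control array. It gave 3.48, 3.12 and 3.26 in TBI and 3.71, 3.82 and 4.33 in HSC+TBI rats, of which 2 were well above background. Cox8b passed the filter through the TBI rats alone, although their mean log2 signal was the lowest (3.29, against 3.82 in control and 3.95 in HSC+TBI rats). The HSC+TBI rats exceeded the TBI rats by 0.67 on the log2 scale (95% interval 0.20 to 1.13, adjusted p = 0.170 by limma) with no overlap. Over all alternatives this difference lay between 0.07 (normexp background correction, adjusted p = 0.588) and 0.79, and it was 0.44 under the 75th percentile shift. Against a bound for the controls, set by the dimmest signals above background, the HSC+TBI mean was 1.04-fold higher, which was not tested. That mean includes the HSC+TBI rat that was not well above background. On the probe's own control signals limma gave an adjusted p of 0.777 for HSC+TBI against control. For TBI no fold could be given. The common form Cox8a had log2 fold changes of 0.10 after TBI (95% interval -0.12 to 0.33) and -0.02 after HSC+TBI. Its TBI rats (15.42, 15.48 and 15.40) lay above all rats of both other groups. Of 7 striated muscle markers on the array, Acta1, Ckm, Myh2, Myh7 and Tnnt3 were not well above background on any array, and the summed signal of the 7 was 201 to 234 in control, 189 to 231 in TBI and 191 to 270 in HSC+TBI rats.

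Cox6a1, Cox6a2, Cox6b2 and Cox7a2 overlapped between all groups. Cox6a2, the heart and muscle form of subunit 6a, gave 7.42, 7.79 and 7.49 in control, 8.34, 7.69 and 7.52 in TBI and 7.69, 8.03 and 7.67 in HSC+TBI rats, with TBI 1 the highest of the 9, and its log2 fold change was 0.28 after TBI (95% interval -0.22 to 0.79). The common form Cox6a1 had log2 fold changes of -0.04 and -0.06 against control. For Cox6b2, the testis form of subunit 6b, they were 0.01 and 0.11, the latter with a 95% interval of -0.40 to 0.62. For Cox7a2, the common form of subunit 7a, they were -0.08 and 0.09. Cox7a2l, known for joining complexes III and IV into supercomplexes, was higher in all TBI rats (11.35, 11.43 and 11.31) than in any control (11.20, 11.17 and 11.14) or HSC+TBI rat (11.27, 11.23 and 11.30). Its log2 fold change after TBI was 0.19 (95% interval -0.03 to 0.41, adjusted p = 0.254 by limma).

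Cox7c, a small subunit of complex IV, had the widest interval of the genes measured on every array. Its log2 signals were 11.33, 11.03 and 11.10 in control, 11.06, 10.56 and 10.27 in TBI and 10.80, 11.77 and 11.13 in HSC+TBI rats. TBI differed from control by -0.53 on the log2 scale (95% interval -1.15 to 0.10) and HSC+TBI exceeded TBI by 0.60 (-0.02 to 1.23, adjusted p = 0.322 by limma). The irradiated groups overlapped, since HSC+TBI 1 lay below TBI 1.

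Complex V, ATP synthase, has a catalytic head in the matrix (Atp5f1a to Atp5f1e), a membrane rotor and a stalk. Of its 15 genes, 4 were higher and 11 lower after TBI, with a median log2 fold change of -0.10, and the median was -0.01 after HSC+TBI. Under the 75th percentile shift the TBI values of Atp5f1b, Atp5mg and Atp5if1, described next, were -0.32, -0.29 and -0.14. Atp5f1b, the catalytic beta subunit, gave 12.71, 12.77 and 12.95 in control, 12.43, 12.37 and 12.49 in TBI and 12.65, 12.65 and 12.75 in HSC+TBI rats. All TBI rats lay below all rats of both other groups. Its level after TBI was 0.769 of that in control (log2 -0.38, 95% interval -0.63 to -0.13), with an adjusted p of 0.0702 that did not pass limma's threshold. HSC+TBI differed from control by -0.13 (95% interval -0.38 to 0.12), which became 0.02 under a 75th percentile shift, and from TBI by 0.25 (-0.00 to 0.50, adjusted p = 0.308).

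The alpha subunit Atp5f1a, which forms the head together with beta, gave 12.56, 12.71 and 12.74 in control, 12.56, 12.56 and 12.54 in TBI and 12.94, 12.69 and 12.92 in HSC+TBI rats. The HSC+TBI rats were above all TBI rats, by 0.29 (95% interval 0.03 to 0.55, adjusted p = 0.259 by limma), and overlapped with the controls. Atp5f1d, the delta subunit of the central stalk, differed from control by -0.15 after TBI (95% interval -0.40 to 0.10). Atp5mg, subunit g of the membrane part, gave 15.13, 15.21 and 15.11 in control, 14.98, 14.73 and 14.70 in TBI and 14.97, 14.96 and 15.12 in HSC+TBI rats. All TBI rats lay below all controls, with a log2 fold change of -0.35 (95% interval -0.62 to -0.08, adjusted p = 0.104 by limma), which was -0.14 after HSC+TBI and 0.04 there under the 75th percentile shift.

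Atp5if1 encodes the inhibitor that stops ATP synthase from running backwards. It gave 12.51, 12.68 and 12.45 in control, 12.30, 12.44 and 12.30 in TBI and 12.03, 12.12 and 12.50 in HSC+TBI rats. The TBI rats lay below all controls, while HSC+TBI 3 lay among them. The log2 fold change was -0.20 after TBI (95% interval -0.53 to 0.13) and -0.33 after HSC+TBI (-0.67 to -0.00, adjusted p = 0.254 by limma). The remaining subunits of complex V (Atp5f1c, Atp5f1e, Atp5mc1, Atp5mc2, Atp5me, Atp5mk, Atp5pb, Atp5pd, Atp5pf and Atp5po) had log2 fold changes from -0.12 to 0.09 after TBI and from -0.12 to 0.13 after HSC+TBI.

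**Figure D3:**
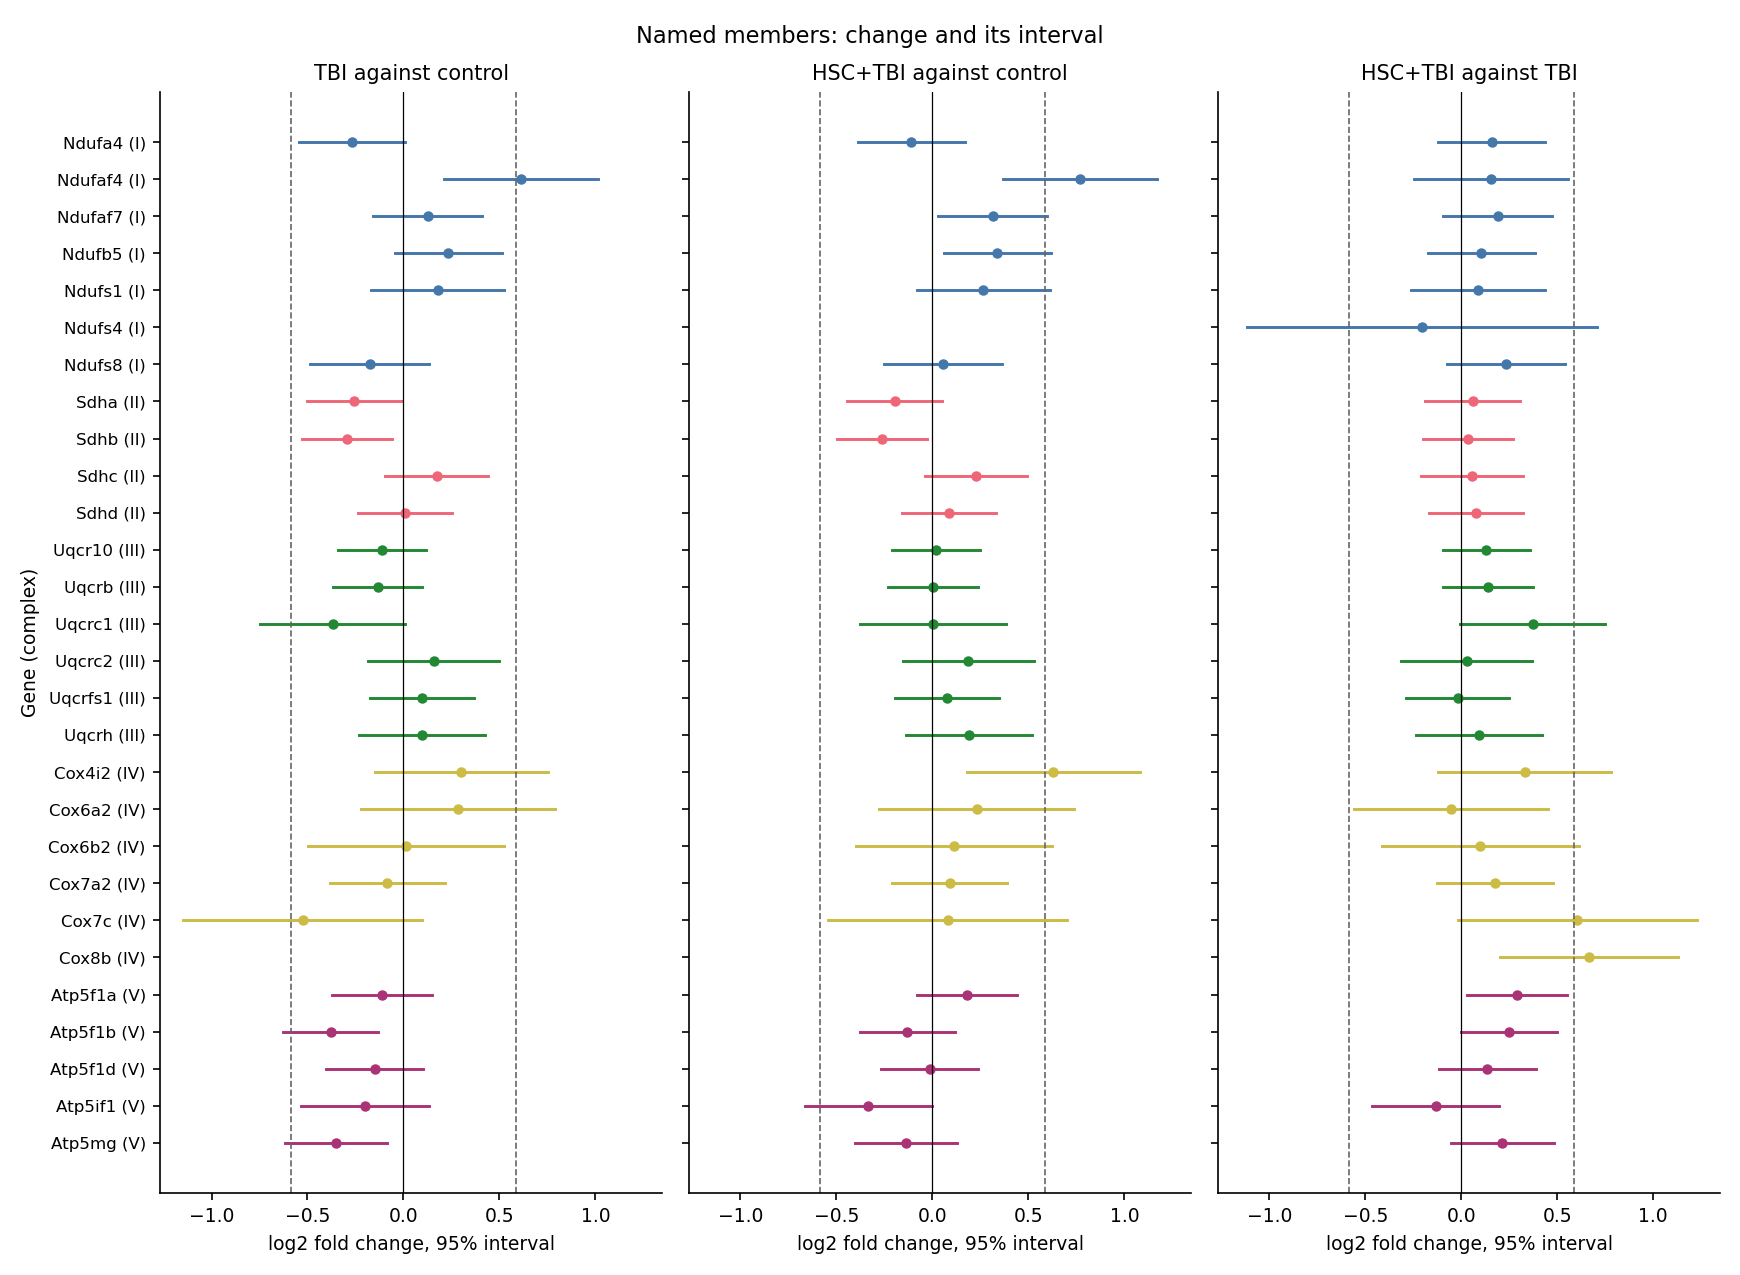
log2 fold change (point) and 95% interval (line) of genes chosen by the naming rule, coloured and ordered by complex, in the 3 comparisons, with dashed lines at 1.5-fold. The intervals of Ndufaf4 against control (0.21 to 1.01 and 0.37 to 1.17) and of Atp5f1b after TBI (-0.63 to -0.13) do not include 0, though no adjusted p passed the threshold. Ndufs4 and Cox8b have no point against control.

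Some genes had groups without overlap. After TBI 13 of 75 genes (17.3%) had all rats on one side of the controls, 5 higher and 8 lower, beside 28.9% of all tested probes. For HSC+TBI against control it was 17 (22.7%), 15 higher and 2 lower, beside 31.7%, and for HSC+TBI against TBI 15 (20%), 13 higher and 2 lower, beside 21.4%. The 2 lower genes after HSC+TBI were Sdha and Sdhb. Among the 15 higher were 10 genes of complex I, namely Ndufa6, Ndufb2, Ndufb3, Ndufb5, Ndufb7, Ndufb9, Ndufb10, Ndufaf4, Ndufaf5 and Ndufaf7. These are 27.8% of the 36 complex I genes, beside 31.7% of all tested probes and 40.1% of the bright probes named above. Over all tested probes without overlap, 3368 were higher and 3953 lower after TBI, and 4565 and 3469 after HSC+TBI. Between the irradiated groups these counts were 3218 and 2218.

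For 8 genes the array held several probes, and the brightest was used. The probes differed most for Ndufc2, an accessory subunit of complex I. Its brighter probe gave 13.37, 13.32 and 13.33 in control and 13.39, 13.32 and 13.28 in TBI rats, a log2 fold change of -0.01. Its dimmer probe gave 7.77, 8.23 and 8.04 in control, 7.19, 7.20 and 7.21 in TBI and 7.60, 8.76 and 7.76 in HSC+TBI rats, so that TBI differed from control by -0.82 (log2, adjusted p = 0.114 by limma). All TBI rats lay below all others on that probe, so the level of Ndufc2 after TBI depends on which probe is read.

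Factors known to regulate respiratory chain genes were listed separately. On the array 19 of them were tested. Limma called 1 of these for TBI against control (6 at an unadjusted p under 0.05) and 0 for the other comparisons (2 for HSC+TBI against control and 5 for HSC+TBI against TBI at an unadjusted p under 0.05). Of all tested probes, 7.25%, 3.23% and 0.796% were called in the 3 comparisons, and 25.5%, 19.6% and 16.3% met that unadjusted p. The called gene was Pprc1, a coactivator of the PGC-1 family that responds early to growth signals. It gave 8.02, 8.17 and 8.08 in control, 9.26, 8.72 and 8.82 in TBI and 8.41, 8.56 and 8.31 in HSC+TBI rats, with all TBI rats the highest. It rose by 0.84 on the log2 scale after TBI (standard error 0.16, adjusted p = 0.0164), and the value after HSC+TBI was 0.34 (adjusted p = 0.282 by limma).

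Nrf1 differed among the 3 groups by limma's F-test (adjusted p = 0.0360), as did Pprc1 (adjusted p = 0.0357). Nrf1, which binds the NRF1 letters shown above, gave 4.94, 5.05 and 5.37 in control, 4.46, 4.49 and 4.52 in TBI and 5.31, 5.69 and 5.13 in HSC+TBI rats. The TBI rats were the lowest, by -0.63 against control (adjusted p = 0.0577), and HSC+TBI exceeded TBI by 0.89 (adjusted p = 0.0608), neither a call by limma. The 8 member genes with these letters in the promoter had median log2 fold changes of -0.08 after TBI, 0.05 after HSC+TBI and 0.09 between the irradiated groups, beside -0.00, 0.07 and 0.06 for those without, given as a description. For the ETS letters the medians after TBI were -0.006 with and -0.010 without. They were -0.009 and -0.010 for YY1, and 0.015 and -0.019 for ERR.

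The other regulators were not called. Ppargc1b, a coactivator of mitochondrial genes, gave 7.91, 8.51 and 8.27 in control, 7.06, 7.74 and 7.46 in TBI and 7.72, 7.45 and 7.11 in HSC+TBI rats, so that all irradiated rats lay below the controls (-0.81 for TBI, adjusted p = 0.0720, and -0.80 for HSC+TBI, adjusted p = 0.108 by limma). Ppara, a receptor for fatty acids, was lower in all TBI rats (8.58, 8.53 and 8.90) than in any control (9.41, 9.06 and 9.38) or HSC+TBI rat (9.22, 9.05 and 9.50), by -0.61 against control (adjusted p = 0.0620). Nrip1, a corepressor of respiratory genes, was higher in all TBI rats (7.69, 7.67 and 7.91) than in any control (7.22, 7.43 and 7.04), by 0.53 (adjusted p = 0.0507 by limma). Ppargc1a, the best known coactivator of this family, spread from 3.66 to 5.57 over the TBI rats, with a 95% interval of -1.62 to 0.27 against control. For Esrra, Gabpa, Gabpb1 and Yy1, whose products bind the other motifs, the log2 fold changes after TBI were 0.27, 0.22, -0.07 and -0.10.

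Other mitochondrial lists were read in the same way. Of 59 genes of the mitochondrial ribosome, limma called 0 in each comparison, with 7, 9 and 1 at an unadjusted p under 0.05. Of 16 genes from a list of the TCA cycle, pyruvate dehydrogenase and pyruvate carboxylase limma called 0, with 1, 1 and 1. Of 16 genes for electron carriers, nucleotide and phosphate carriers and uncoupling proteins limma called 0, with 1, 2 and 2. Over these carrier genes the log2 fold changes ran from -0.17 to 0.42 after TBI and from -0.70 to 0.36 after HSC+TBI. Between the irradiated groups they ran from -1.11 to 0.38. The shares over all tested probes were 7.25%, 3.23% and 0.796% for calls and 25.5%, 19.6% and 16.3% at that unadjusted p. Cycs, the cytochrome c that links complexes III and IV, gave 13.31, 13.08 and 13.26 in control, 13.56, 13.47 and 13.88 in TBI and 13.68, 13.57 and 13.50 in HSC+TBI rats. All irradiated rats lay above the controls, by 0.42 after TBI (adjusted p = 0.101) and 0.36 after HSC+TBI (adjusted p = 0.193 by limma). The mitochondrially encoded genes were looked for under 26 symbols, of which 0 had a probe matched by accession, so the subunits that the organelle itself encodes were not analysed here.

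**Figure D4:**
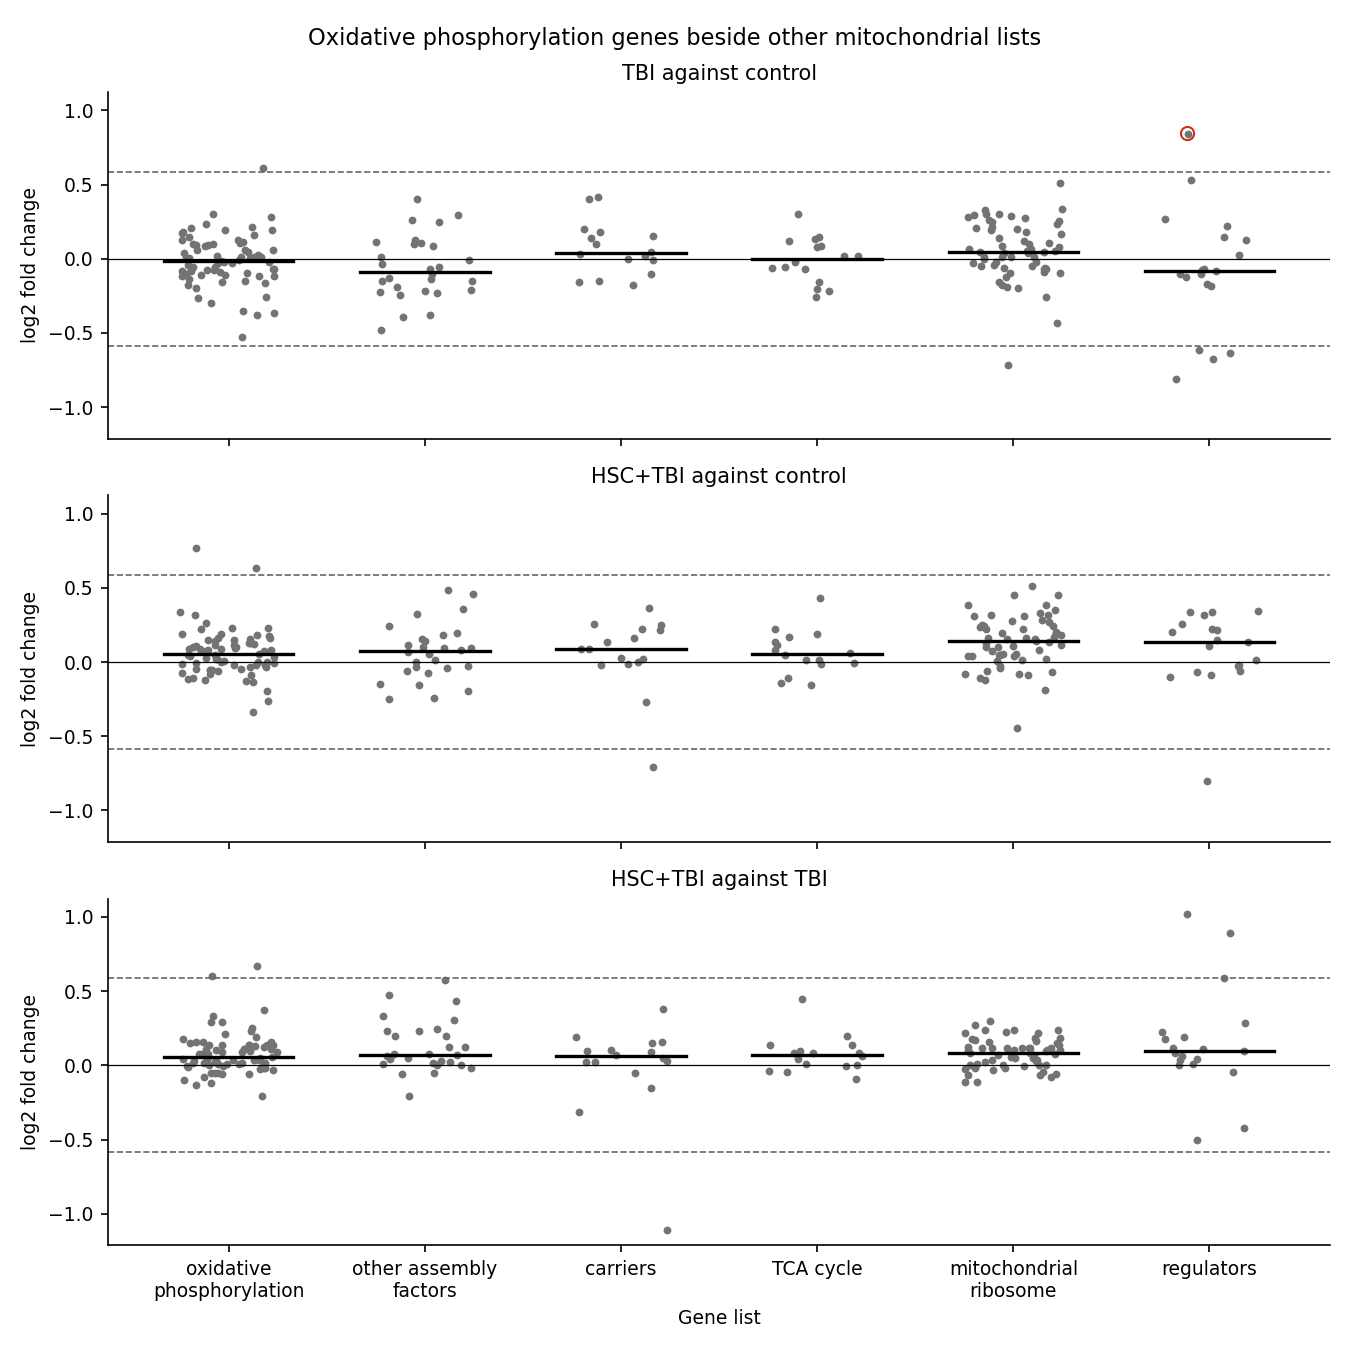
log2 fold change (vertical axis) of the 75 oxidative phosphorylation genes and of 5 other lists of mitochondrial genes in the 3 comparisons, 1 grey point per gene, with black bars for medians, dashed lines at 1.5-fold and a red ring around a called gene. Pprc1 after TBI (0.84) is the single called gene, and Ndufs4 and Cox8b are left out of points and bars against control.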

How the data were processed

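Liver RNA of 9 rats was measured on 1 array each. The authors read spot intensities with Agilent Feature Extraction (version 10.7, per the submitters' processing notes) and deposited them with quality flags, together with quantile-normalized log2 values per probe. Here, processed signal intensities under 1 were raised to 1, and log2 values were quantile-normalized over the 9 arrays and averaged per probe without outlier spots (84 to 115 of 43379 per array, 0 saturated). They differed from the authors' deposited log2 values by a median of 0.03, with r of at least 0.9999, so the scale of those is log2 and not centred.

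Accessions named 16968 of 41012 probes through RefSeq (GRCr8). The 25369 probes flagged well above background in every rat of a group were fitted with limma 3.58.1 (R 4.3.3), with Benjamini-Hochberg adjustment over all of them. A gene was read by its brightest tested probe. Where all arrays of a group were not well above background, its bound was, per array, the dimmest probe flagged well above background or the probe's own signal, whichever was higher.

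The labels describe separate rats. Array number limits precision. The fit was tested on simulated data. Members, gene lists and motifs were chosen with earlier results of these data known. Genes named are the called ones, all of complex II, and in the other complexes the 4 with the largest change in each comparison and the brightest and dimmest, plus paired forms and regulators. A few others (Cox7a2l, Ndufc2, Cycs and genes listed in counts) were chosen after their values were seen. Some items that the rule takes are not reported here. The alternatives were another scaling, background correction, filter, test, fit, probe choice, block, and each rat left out.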

Additional observations from a re-analysis of the deposited data

How the results depend on the processing

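The count of 0 called genes rested on Ndufaf4 lying near the threshold. For HSC+TBI against control the count was 1 (Ndufaf4) under a 75th percentile shift, normexp correction, the filter to probes well above background on all arrays and fits of only the compared groups. The shift, normexp and that filter called 3.76%, 2.03% and 3.16% of all tested probes in this comparison. With the 75th percentile shift the median member changes were 0.039, 0.21 and 0.17 (TBI against control, HSC+TBI against control, HSC+TBI against TBI). The F-test gave 1 gene under that shift and 1 under normexp. The methods' t-test at an unadjusted p called 1 (Ndufaf4), 2 (with Cox4i2) and 1 (Cox8b), the methods' analysis of variance 3, and both 0 after adjustment. With the slide as a random block limma called the same numbers, 1, 2 and 1, and 16 by the F-test, but the estimated correlation within slides was negative (-0.33) and 17.8%, 10.1%, 8.89% and 48.7% of all probes were then called. Shares over all probes are not given here for fits of only the compared groups, the unadjusted t-test or the analysis of variance. Nor are they given for the F-tests under the shift and normexp, so these counts have no background beside them.

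With single rats left out, the counts ranged from 0 to 1 for both comparisons with control and for the F-test and were 0 for HSC+TBI against TBI. Without TBI 1 the count was 1 for HSC+TBI against control, and without TBI 2 it was 1 against control for both irradiated groups, each time Ndufaf4. The median change ranged from -0.05 to 0.01, from 0.03 to 0.08 and from 0.05 to 0.09. A fit with the replicate number as a replicate block called 0 of 75 genes in each comparison, and calls over all probes went to 1575, 780 and 97. The deviations of same-numbered rats had correlations of 0.19, 0.12 and 0.10 between control and TBI. Those of HSC+TBI rats with either other group ranged from -0.14 to 0.01. Whether same-numbered samples share more than a number was not tested.

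Of 1315 values of the named genes over the alternatives, 1286 kept direction and side of the threshold. Those of changed sign were mostly small. For HSC+TBI against control, the 75th percentile shift gave 0.044 for Atp5mg, 0.020 for Atp5f1b and 0.024 for Sdha, and normexp gave -0.015 for Cox6b2. With single rats left out, values of changed sign gave these ranges: for HSC+TBI against control Cox6b2 -0.085 to 0.31 (lowest without control 2), Uqcr10 -0.024 to 0.045 (control 3) and Cox8b -0.061 to 0.27 (HSC+TBI 3); for TBI against control Sdhd -0.064 to 0.071 (control 3); and between the irradiated groups Sdha -0.0061 to 0.093 and Sdhb -0.0031 to 0.082 (both TBI 2), Sdhc -0.031 to 0.14 (HSC+TBI 2), Uqcrh -0.011 to 0.19 (HSC+TBI 3) and Ndufs4 -0.48 to 0.27 (highest without HSC+TBI 1). The causes were not tested. Signals near background limit Ndufs4, Cox8b and Cox6b2.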
